A study of Mus musculus with 4 samples.

Results

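The infarct zone (IZ) is the stretch of a ligated heart in which cardiomyocyte RNA has collapsed, and it was compared here between 3 and 5 days post infarction (dpi). On each tissue section, the share of 12 cardiomyocyte genes in the non-mitochondrial UMIs (unique molecules counted) of each spot was taken. Spots were selected by that share: those below 0.5 times the section's 90th percentile, in connected patches of at least 10, formed the IZ. This rule gave 886 IZ spots at 3 dpi and 1081 and 684 in the pair of 5 dpi sections, 2651 of the 5909 spots kept in the series. Each section held a single connected patch, and the uninjured control section had no IZ spot among the 1166 kept, a share whose exact binomial 95% interval reaches 0.316%.

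All hearts came from mice of 8 to 12 weeks that carry a Collagen1a1-GFP reporter, in which GFP marks cells that use the promoter of the collagen gene Col1a1. Infarction was made by ligating the left anterior descending coronary artery, and hearts were taken 3 or 5 days later. The control and the 3 dpi heart are labelled female, and of the 5 dpi hearts 1 is labelled female and 1 male. RNA was captured on Visium arrays from 10 µm sections of fresh-frozen tissue, 1 section per heart, and a spot can cover several cells. Y-linked transcripts gave 542 UMIs in the IZ of the 5 dpi section labelled female and 1 in that labelled male, against their labels, so the sections are named here by label only.

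After a coronary artery closes, the muscle it fed dies and is cleared by neutrophils, monocytes and macrophages, while fibroblasts divide, become contractile and lay down a scar. The days compared here fall within the change from inflammation to matrix production. Scar matrix is built from fibrillar collagens, the enzymes that trim and crosslink them, small proteoglycans that space the fibrils, elastic fibres, and matricellular proteins, which signal to cells more than they bear load.

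At 3 dpi, 50.5% of kept spots were infarct (exact binomial 95% interval from 48.2 to 52.9). At 5 dpi the share was 69.0% (from 66.6 to 71.3) in the female-labelled section and 48.1% (from 45.4 to 50.7) in the male-labelled one. Spots of 1 section are not replicates, so the binomial intervals here and above do not measure differences between hearts. The IZ held 5005641, 7654312 and 4838496 non-mitochondrial UMIs in the same order, with medians of 2328.5, 2648 and 2591 genes per spot. The shape of the zone differed between the days. At 3 dpi its deepest spot lay 16 spot steps from non-infarct tissue, against 55 and 42 steps at 5 dpi, and 358 of the 886 spots lay within 2 steps of the edge (the rim) at 3 dpi, against 172 and 91. The core, over 4 steps in, held 342, 819 and 538 spots. Residual muscle RNA differed as well. The 12 cardiomyocyte genes made up 2.06% of non-mitochondrial IZ UMIs at 3 dpi and 0.727% and 0.868% at 5 dpi, and mitochondrially encoded RNA made up 9.98%, 5.17% and 3.30% of all IZ UMIs. The spots were chosen by their cardiomyocyte share, below limits of 5.28% at 3 dpi and 4.31% and 4.64% at 5 dpi. The cardiomyocyte share of the zone is therefore no finding.

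**Figure D1:**
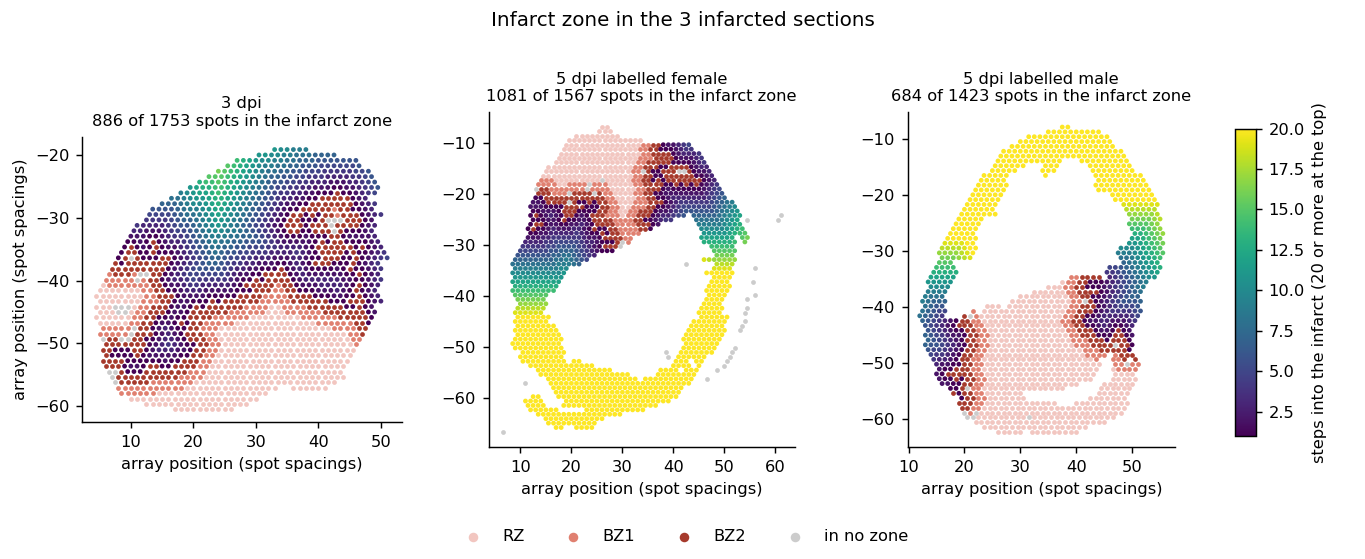
Spots of the 3 infarcted sections at their array positions, in units of spot spacing. Colour from dark blue to yellow gives the number of steps into the IZ, and pinks and reds give the remote zone (RZ, over 4 steps outside the IZ) and the border zones BZ1 (3 to 4 steps outside) and BZ2 (1 to 2 steps outside). The colour scale stops at 20 steps, and the 5 dpi zones run up to 55 and 42 steps deep, against 16 at 3 dpi.

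UMIs of all IZ spots of a section were summed, and a level is given as CPM, the UMIs of a gene per 1000000 non-mitochondrial UMIs of that zone. Genes were chosen by their 5 dpi levels against 3 dpi: a gene counted as higher or lower when both 5 dpi sections lay on the same side of the 3 dpi section, the nearer of them by at least 1.5-fold, and by more on the log2 scale than the 5 dpi sections differed from each other. With 1 heart at 3 dpi and with this contrast used to choose the genes, no test was made, and folds are given for the female-labelled and then the male-labelled section. Intervals are exact 95% Poisson intervals and cover counting error only.

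Of 8730 genes measured (mean of at least 10 CPM), 355 were higher at 5 dpi, or 4.07%, and 485 were lower, or 5.56%. Each list count below is to be read beside these shares. At 2-fold or more the numbers were 127 and 140. The median log2 ratio over all measured genes was −0.04 and −0.07 in the 5 dpi sections. The share of all measured genes on the same side of 3 dpi in both sections, with no fold limit, was not counted. List counts of that kind therefore have no background share. Between the 5 dpi sections the median absolute log2 difference was 0.15, and 245 genes, 2.81%, differed by at least 1.5-fold. The rule has a sharp edge: Cd248 and Fzd2 had nearer folds of 1.50026 and 1.49982, and only the first was counted as higher, while Mrpl49 and Parvb had downward folds of 1.50001 and 1.49996, and only the first was counted as lower.

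**Figure D2:**
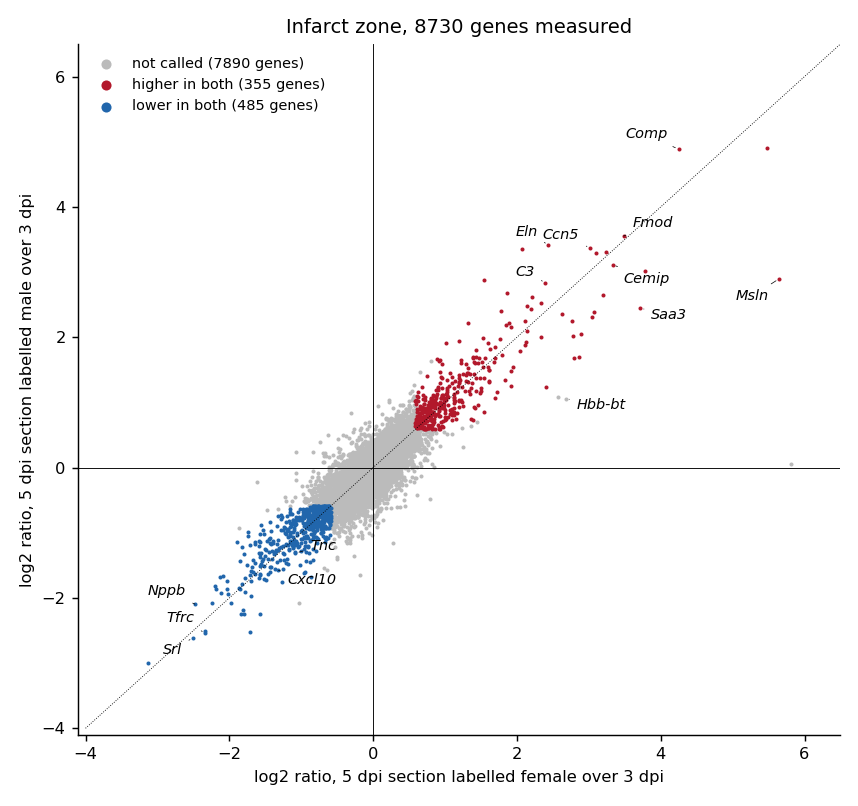
Log2 ratio of the IZ level over 3 dpi for each of 8730 genes, in the 5 dpi section labelled female (horizontal axis) and labelled male (vertical axis). Red points are the 355 genes counted as higher and blue points the 485 counted as lower. Most lie near the dotted line of equal ratios, and Saa3, Msln and Hbb-bt lie below it.

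Among genes with a mean of at least 20 CPM, the largest upward ratio was that of Comp. Comp (ENSMUSG00000031849), cartilage oligomeric matrix protein, a thrombospondin that joins collagen fibrils, stood at 7.19 CPM at 3 dpi (5.04 to 9.96) and at 137 (129 to 145) and 212 (199.7 to 226) CPM at 5 dpi, 19.0- and 29.5-fold higher. Its level was 3.16 CPM in the control and 4.43, 12.8 and 11.7 CPM in the RZ of the 3 dpi, female-labelled and male-labelled sections. With every spot thinned to 1550 non-mitochondrial UMIs, which left out 89, 60 and 4 shallower IZ spots, 1.38% of the 797 spots used at 3 dpi held a Comp UMI, against 17.4% and 26.3% of the 1021 and 680 used at 5 dpi. Without thinning the shares of the same spots were 3.89%, 45.5% and 58.1%. Both 5 dpi levels lay far above the 3 dpi section.

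Fmod (ENSMUSG00000041559), fibromodulin, a small proteoglycan that binds collagen fibrils, followed at 11.6, 129.7 and 136 CPM, 11.2- and 11.7-fold higher. Cemip, which breaks down hyaluronan, stood at 13.2, 133 and 114 CPM and was at 0 UMIs in the control, where 3 UMIs would be 0.789 CPM. Ecrg4, a secreted peptide precursor, stood at 5.99, 56.8 and 59.5 CPM, and Col8a2, a network collagen chain, at 5.19, 44.7 and 51.0 CPM. Ccn5, a matricellular protein of the CCN family, went from 35.6 CPM to 288 and 368 CPM. In each of these genes the 5 dpi sections lay close together and 3 dpi far below both.

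Elastic fibre genes were higher as well. Eln, the elastic core of arteries and lungs, stood at 43.8 CPM at 3 dpi (38.1 to 49.9) and at 237 (226 to 248) and 467 (448 to 487) CPM at 5 dpi. The 5 dpi sections differed by 1.97-fold between themselves, and 3 dpi lay 5.42-fold below the nearer. Fbln5, needed to assemble elastin, went from 32.6 to 164 and 187 CPM. At 3 dpi both genes were lower in the IZ than in the RZ, which held 83.5 CPM of Eln and 38.4 CPM of Fbln5. At 5 dpi both were higher in the IZ, the RZ holding 139 and 94.7 CPM of Eln and 42.0 and 43.9 CPM of Fbln5.

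Acute-phase and complement genes also stood among the 15 genes with the largest upward ratios. Saa3, a serum amyloid A protein made by activated macrophages and fibroblasts, stood at 21.6, 283 and 118 CPM, and C3, the central complement component, at 45.1, 238 and 322 CPM. Serpina3n, a secreted protease inhibitor, stood at 55.3, 254 and 301 CPM, and Wfdc18, another small secreted protein with an inhibitor fold, at 7.79, 71.2 and 49.0 CPM. Saa3 was the least even of these, 13.1-fold higher in the female-labelled section and 5.45-fold in the male-labelled one, and it was not counted in the core, at 52.4, 363 and 122 CPM, or in spots with under 1% cardiomyocyte UMIs. The other members of the 15 were Actg2, an actin of smooth muscle (8.59, 72.5 and 44.8 CPM), Kcnj15, a potassium channel (6.99, 43.4 and 35.8 CPM), and Col11a1, a fibrillar collagen chain of cartilage (12.6, 86.0 and 59.7 CPM). Actg2 was not counted at the rim.

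**Figure D3:**
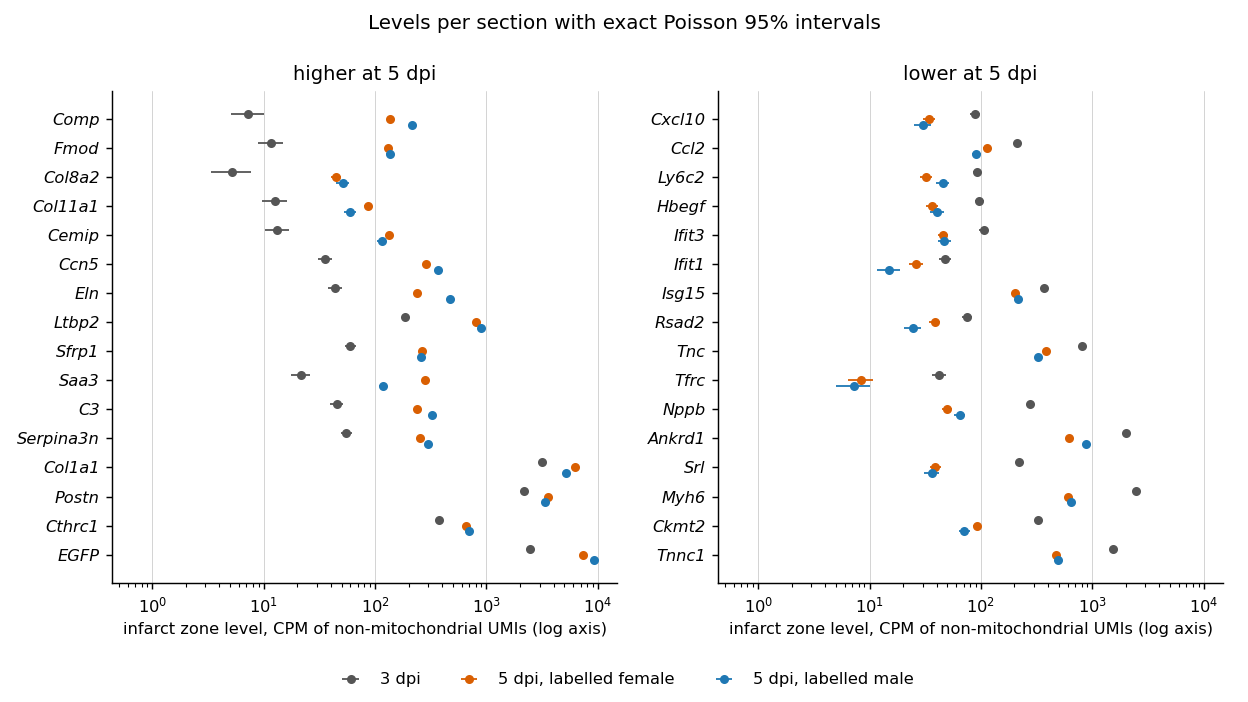
IZ level in CPM on a log axis for 32 genes, with 1 point per section and exact Poisson 95% intervals (hidden by the point where narrow). In the left panel both 5 dpi points lie to the right of 3 dpi, by 19.0- and 29.5-fold for Comp, and in the right panel both lie to the left, by 2.58- and 2.95-fold for Cxcl10.

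Among collagens the change was broad but smaller than in the genes at the top. Of 21 measured fibrillar and network collagen genes, 13 were higher, none was lower and 8 were neither, with list medians of 0.85 and 0.72 on the log2 scale. Col1a1 and Col1a2, the chains of type I collagen that carry the load of a scar, stood at 3139.9, 6261 and 5212 CPM and at 3817, 7261 and 6627 CPM, between 1.66- and 1.99-fold higher, though Col1a1 was not counted at the rim. Both were already abundant at 3 dpi, at 554 and 678 CPM in the RZ of the same section. The collagens with the largest ratios, Col8a2 and Col11a1, began at a low level, as did Col7a1, the anchoring fibril collagen, which was at 4.79, 16.3 and 18.8 CPM. Col14a1, a collagen that sits on the fibril surface, stood at 119, 274 and 293 CPM.

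The basement membrane collagens were not counted. Col4a1 and Col4a2 stood at 937, 1109.6 and 1191 CPM and at 595, 781 and 878 CPM, and the nearer section of each was under 1.5-fold.

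The reporter, which carries a promoter of Col1a1, was also counted as higher. EGFP stood at 2441 CPM in the IZ at 3 dpi (2398 to 2485) and at 7363 (7303 to 7424) and 9201 (9115 to 9286) CPM at 5 dpi, 3.02- and 3.77-fold higher. Its level in the RZ was 867, 1648 and 2471 CPM, so it was higher at 5 dpi outside the infarct as well, and 686 CPM in the control. A difference between hearts in the reporter itself was not tested. The ratio over 3 dpi was larger for the reporter than for Col1a1 itself, 1.99- and 1.66-fold, in both sections.

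Genes that process and crosslink collagen were split. Of 21 measured, 8 were higher, none was lower and 13 were neither, with medians of 0.51 and 0.43. Bmp1 and Adamts2, which cut the end peptides from procollagen, stood at 218, 441 and 507 CPM and at 169.8, 342 and 371 CPM, and P4ha3, a prolyl hydroxylase subunit, at 39.6, 78.9 and 83.3 CPM. The crosslinking enzymes Lox and Loxl3 stood at 333, 697 and 618 CPM and at 227, 427 and 429.9 CPM. P4ha3 and Loxl3 were not counted at the rim, at 39.7, 42.7 and 69.1 CPM and at 209, 300 and 260 CPM. Loxl2 gave 218, 187 and 166 CPM, below 3 dpi in both sections by less than 1.5-fold. Serpinh1, the collagen chaperone of the endoplasmic reticulum, gave 2048, 2357 and 2101.5 CPM. Of 28 measured genes of folding and secretion none was counted in either direction, and Hspa5, its main chaperone, gave 1014, 741 and 567 CPM.

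Small leucine-rich proteoglycans, which coat and space collagen fibrils, were higher in 6 of 8 measured genes, with medians of 0.89 and 0.92. Bgn, biglycan, was the most abundant at 1946, 3786 and 4520.0 CPM. Prelp went from 21.0 to 77.6 and 97.3 CPM, and was the member with the largest fold after Fmod. Lum stood at 204, 361 and 402 CPM, and Aspn at 161, 345 and 282 CPM, and Lum was not counted at the rim. Dcn, decorin, the proteoglycan typical of resting fibroblasts, gave 397, 581.5 and 671 CPM and fell just short of 1.5-fold in the nearer section.

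Matricellular genes were mostly higher: of 17 measured, 11 were higher and 1 was lower, with medians of 1.01 and 0.88. Thbs2 and Thbs4 followed Comp among the thrombospondins, at 88.1, 340.2 and 257 CPM and at 69.3, 177 and 188 CPM. Thbs1, the platelet and early wound member, gave 158, 429 and 257 CPM and was not counted, since its 5 dpi sections differed more from each other than the nearer differed from 3 dpi. Postn, periostin, stood at 2177, 3560.1 and 3357 CPM.

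The matricellular gene that was lower was Tnc, tenascin C, an early wound glycoprotein. It stood at 816 CPM at 3 dpi (791 to 841) and at 386 (372 to 400.0) and 328 (312 to 345) CPM at 5 dpi, 2.11- and 2.48-fold lower. After thinning, 62.6%, 38.0% and 30.4% of the spots used held a Tnc UMI. The gap was widest at the rim, at 907, 218 and 294 CPM, and narrower in the core, at 627, 434 and 334 CPM, where Tnc was not counted as lower. Tnc was at 1.58 CPM in the control and at 110, 50.2 and 64.5 CPM in the RZ.

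Elastic fibre genes and latent TGF-beta binding proteins had the highest share of all matrix lists beyond the 1.5-fold limit among those with over 10 measured genes: 12 of 15 were higher and none lower, with medians of 0.78 and 0.97. Ltbp2 went from 186 to 805 and 889 CPM, and Mfap4, a microfibril protein, from 165 to 569.7 and 879 CPM. The female-labelled section was lower than the male-labelled one for Eln, Mfap4 and Fbln1, the last at 48.3, 97.5 and 181 CPM. Of the 9 measured genes of the cartilage and tendon list 7 were higher, and 5 of those 7 are already named here. The others were Acan, aggrecan, at 2.20, 30.2 and 17.8 CPM but not counted at the rim, and Scx, a tendon transcription factor, at 19.4, 45.7 and 39.1 CPM. Sox9, the regulator of cartilage genes, gave 21.4, 25.5 and 29.97 CPM and was not counted.

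In the provisional matrix, Fn1 (fibronectin) and Cemip were the 2 higher genes of 8 measured. Fn1 stood at 1853, 4524 and 4660.3 CPM, 2.44- and 2.52-fold higher, and its RZ levels were 214, 278 and 293 CPM. Of 16 measured metalloproteinases and inhibitors, 5 were higher and none lower. Mmp2, a gelatinase made by fibroblasts, stood at 92.1, 399 and 338 CPM, and Timp3, an inhibitor bound to matrix, at 66.5, 202 and 194 CPM. At 3 dpi Mmp2 was at nearly the same level in the RZ, 91.6 CPM, and at 5 dpi it was above RZ levels of 103 and 77.4 CPM. Timp1, the inhibitor of early wounds, gave 2032, 1940.3 and 2075 CPM, and Mmp9, a gelatinase of neutrophils, 25.6, 20.1 and 12.0 CPM.

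The 6 markers used for reparative cardiac fibroblasts (RCFs), the scar-forming state on which the study centres, were all higher, with medians of 0.93 and 0.88. They were chosen with results of these data known, so the count does not stand as independent evidence. Cthrc1 stood at 375 (359 to 393), 650.0 (632 to 668) and 691 (667 to 714) CPM, and at 0 UMIs in the control. Ddah1, an enzyme that breaks down inhibitors of nitric oxide synthesis, stood at 46.3, 151 and 166 CPM, the largest ratio of the 6. Ptn, a growth factor, stood at 72.3, 115 and 112 CPM. Cthrc1 was not counted at the rim, at 402, 585 and 838.5 CPM. After thinning, it was seen in 38.0%, 59.2% and 58.7% of the spots used.

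Markers of resting fibroblasts were higher too, in 6 of 11 measured genes. Pi16 stood at 36.2, 68.2 and 113 CPM and Igfbp4 at 127, 275 and 265 CPM. Pi16 remained below its RZ levels of 182, 235 and 160 CPM in every section, and it was not counted in the core, at 23.5, 39.9 and 109 CPM, or in spots with under 1% cardiomyocyte UMIs. Pdgfra, a receptor found across fibroblasts, gave 44.2, 42.3 and 31.6 CPM, below 3 dpi in both sections and under the limit. More fibroblasts in a spot and more RNA per fibroblast cannot be told apart in sums over spots.

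Contractile genes were higher in 6 of 15. Acta2, smooth muscle actin and the mark of a myofibroblast, stood at 709, 1629.5 and 1352 CPM, and Myl9, a myosin light chain, at 207, 609 and 665 CPM. For Acta2 the difference lay inside the infarct: the rim held 629, 646 and 677 CPM, and the core 717, 1873 and 1472 CPM. Cnn1, calponin, stood at 34.0, 96.2 and 76.9 CPM, and Cnn2, its relative in many cell types, gave 225.5, 355.5 and 288 CPM and was not counted.

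Among signals, 3 of 18 measured TGF-beta pathway genes were higher and none lower. Tgfb3 was the ligand among them, at 78.7, 196 and 196 CPM, and Pmepa1, a target that restrains the pathway, went from 189.8 to 358 and 351 CPM. Id3, the third, was not counted in the core or in spots with under 1% cardiomyocyte UMIs. Tgfb1 gave 131, 95.1 and 114 CPM. The medians of the TGF-beta list were 0.22 and 0.07, beside calls in 4.07% and 5.56% of all measured genes. Averaged over both sections, its median was −0.03 at the rim, 0.07 in the core and −0.04 in spots with under 1% cardiomyocyte UMIs. All 5 measured Wnt regulators were higher, with medians of 1.41 and 1.43: Sfrp1 stood at 60.1, 266 and 258 CPM, Sfrp2 at 60.1, 154 and 131 CPM, Dkk3 at 23.2, 61.5 and 62.6 CPM, Frzb at 44.2, 94.3 and 116 CPM, and Nkd2, an intracellular antagonist listed with these secreted ones, at 14.2, 43.5 and 39.9 CPM. The other 12 genes of that list were below the level for measurement. Of 16 measured cytokines and growth factors 4 were higher, 1 was lower and 11 were neither, with medians of 0.06 and 0.09. Mdk, midkine, was among the higher ones, at 59.1, 127 and 110.0 CPM.

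**Figure D4:**
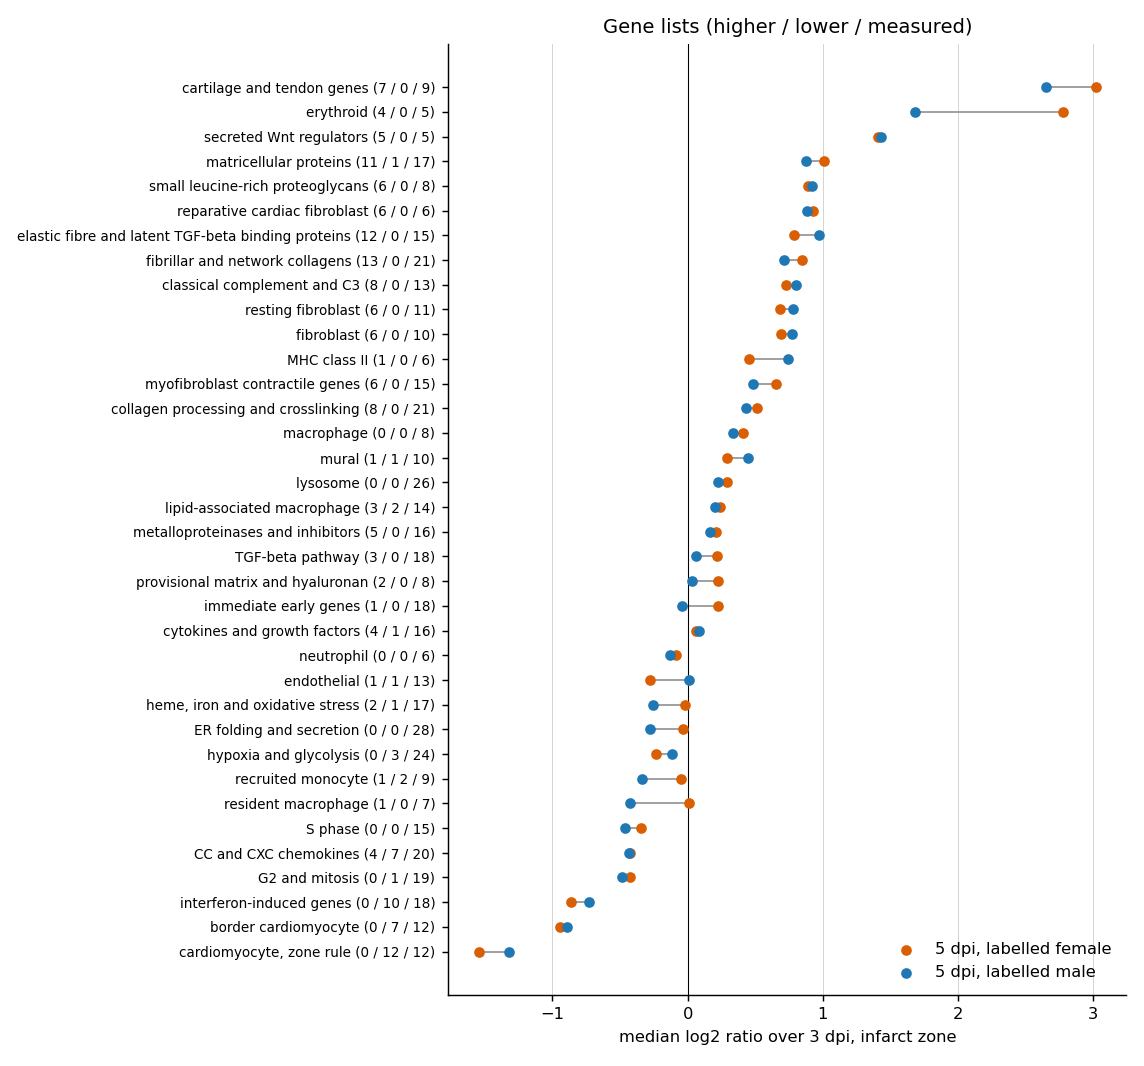
Median log2 ratio of the IZ level over 3 dpi for each gene list with at least 5 measured genes, in the 5 dpi section labelled female (orange) and labelled male (blue). Numbers beside each name count genes higher, lower and measured. Matrix lists lie to the right of 0 in both sections, and the interferon-induced and cardiomyocyte lists to the left.

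Interferon-induced genes were lower. Of 18 measured, none was higher and 10 were lower, all 18 lay below 3 dpi in both sections, and the list medians were −0.86 and −0.73. Interferons made after tissue damage switch on these genes through STAT factors and interferon regulatory factors. Ifit3, which binds viral RNA ends, stood at 105.5 CPM at 3 dpi (96.7 to 115) and at 45.5 (40.8 to 50.5) and 46.9 (41.0 to 53.4) CPM at 5 dpi. Isg15, a ubiquitin-like protein, stood at 365.0, 203 and 214 CPM, Ifit1 at 47.7, 26.1 and 14.9 CPM, and Rsad2, viperin, at 74.5, 38.4 and 24.4 CPM. Ifit3 kept its call in all 15 alternative settings, Rsad2 in 11 and Ifit1 in 9, with Ifit1 lost in the core and in spots with under 1% cardiomyocyte UMIs and Rsad2 at the rim, and both with equal weight per spot. The 8 members not counted included the most abundant, Ifitm3, at 1682, 1322 and 1517 CPM.

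The upstream stretches of some of these genes are shown because many members, though not all, hold a known element, GAAANNGAAA, the core of the interferon-stimulated response element, to which interferon regulatory factors bind. In windows of 250 bases before the transcription start, from RefSeq on build GRCm38.p6, this 10-letter pattern was found on either strand in 9 of the 15 listed genes with a window, 60.0%, and in 7 of the 9 that were lower and had one, 77.8%. Over all 27025 genes with a window it was found in 3.46%, and over the 7065 measured ones in 3.27%. Matches can overlap where the repeat runs on. Capitals mark the matches, and each stretch reads 5′ to 3′ along the gene's strand, with 25 bases kept on either side where the window allows. A match is a description of the letters and was not tested as a site.
Isg15 (chr4:156200850-156200921, minus strand): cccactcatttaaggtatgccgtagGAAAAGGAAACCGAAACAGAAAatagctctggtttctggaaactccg
Ifit1 (chr19:34640760-34640838, plus strand): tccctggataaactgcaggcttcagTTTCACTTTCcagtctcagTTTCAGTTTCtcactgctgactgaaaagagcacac
Ifit3 (chr19:34583348-34583441, plus strand): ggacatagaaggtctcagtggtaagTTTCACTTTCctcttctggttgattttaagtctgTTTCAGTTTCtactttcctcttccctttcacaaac
Rsad2 (chr12:26456538-26456597, minus strand): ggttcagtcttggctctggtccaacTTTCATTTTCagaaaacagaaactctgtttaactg
Cxcl10 (chr5:92349068-92349127, minus strand): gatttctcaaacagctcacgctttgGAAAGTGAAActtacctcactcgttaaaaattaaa

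Isg15 holds 3 overlapping matches, Ifit1 and Ifit3 hold 2 each, and Rsad2 and Cxcl10 hold 1. Cxcl10, listed with the chemokines and shown for its match, encodes a chemokine that draws T cells and is itself induced by interferon. It stood at 88.5 CPM (80.4 to 97.1), 34.4 (30.3 to 38.8) and 29.97 (25.3 to 35.3) CPM, 2.58- and 2.95-fold lower, and it was at 18.5, 15.2 and 17.3 CPM in the RZ.

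Of 20 measured chemokines, 7 were lower and 4 higher, with medians of −0.43 and −0.44. The list's median, averaged over both sections, was −1.27 at the rim, −0.51 in the core and −0.84 in spots with under 1% cardiomyocyte UMIs. The monocyte attractants Ccl2 and Ccl7 stood at 210.2, 112 and 91.1 CPM and at 259, 145 and 143 CPM. Cxcl9, which is also induced by interferon, stood at 23.2, 7.45 and 7.44 CPM, and was not counted in the core. Ppbp, a chemokine of platelets, had the largest ratio, at 31.8, 6.27 and 5.58 CPM, and its level was highest in the core, which held 77.5 CPM at 3 dpi against 2.01 CPM at the rim, where it was not counted. The 4 that were higher were Cxcl12, the attractant of stem cells and lymphocytes (102, 173 and 157 CPM), Cxcl16 (137, 261 and 275 CPM), Ccl17 (2.80, 12.9 and 17.2 CPM) and Ccl19 (15.8, 29.1 and 50.2 CPM). Ccl17 was not counted at the rim, in spots with under 1% cardiomyocyte UMIs or with a filter of 50 CPM.

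Of 9 measured monocyte genes, 2 were lower and 1 was higher, with medians of −0.05 and −0.34. Averaged over both sections, the median was −1.49 at the rim, −0.46 in the core and −0.53 in spots with under 1% cardiomyocyte UMIs. Ly6c2, the surface mark of inflammatory monocytes, stood at 92.3, 32.3 and 45.7 CPM, and Ms4a4c at 67.3, 37.4 and 37.8 CPM, both lower. Ccr2, the receptor for Ccl2, gave 73.1, 72.5 and 57.9 CPM, and Plac8 gave 140.2, 149 and 125 CPM. Hp, haptoglobin, in the same list, was higher at 39.0, 96.9 and 107 CPM, though not counted at the rim, at 18.6, 21.3 and 27.6 CPM.

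General macrophage genes did not pass the limit. None of 8 was counted, with medians of 0.41 and 0.34, and Lyz2 gave 3478, 5614 and 4976 CPM and Csf1r 202, 312 and 275 CPM. Under TMM scaling C1qa of this list was counted as higher. At the rim the mean of the list medians of both sections was −0.14, and −0.01 in spots with under 1% cardiomyocyte UMIs. Of 14 lipid-associated macrophage genes 3 were higher: Apoe, a lipid carrier, at 3091, 6810 and 7752 CPM, Gpnmb at 359, 553 and 588 CPM, and Trem2, a lipid receptor, at 238, 381 and 423 CPM. Trem2 was counted in 10 of 15 alternative settings, and not at the rim, in the core or in spots with under 1% cardiomyocyte UMIs. The 2 lower ones, Lpl and Cd36, serve fatty acid uptake, and their RZ levels at 3 dpi were 2791 and 871 CPM, against 446 and 374 CPM in the IZ, and neither was counted at the rim. Spp1, osteopontin, gave 2706, 2657 and 1773 CPM.

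The lysosome list, 26 genes, had none counted either way, although 23 lay above 3 dpi in both sections, with medians of 0.29 and 0.23. Its median averaged over both sections was −0.37 at the rim, 0.21 in the core and 0.01 in spots with under 1% cardiomyocyte UMIs. Ctsb gave 3847, 4464 and 4043 CPM and Ctsd 3162, 4346 and 4084 CPM. Of 6 measured neutrophil genes none was counted, and 4 lay below 3 dpi in both sections, with medians of −0.08 and −0.13. Averaged over both sections, the median was −0.46 at the rim, −0.70 in the core and −0.72 in spots with under 1% cardiomyocyte UMIs. S100a9 gave 116, 111 and 113 CPM over the whole zone and 209, 135 and 127 CPM in the core, and Ly6g, the defining mark, was at 0, 0.261 and 0 CPM. Complement genes were higher in 8 of 13 measured. C1qb and C1qc of macrophages stood at 1286, 2024 and 2393.5 CPM and at 694, 1071.5 and 1109.6 CPM, and Serping1, the C1 inhibitor, at 115, 311 and 373 CPM. C4b stood at 28.8, 88.3 and 72.1 CPM.

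Cell cycle genes lay below 3 dpi without reaching the limit. All 15 measured S phase genes and all 19 measured G2 and mitosis genes were lower in both 5 dpi sections, with medians of −0.35 and −0.46 and of −0.43 and −0.49, but only Bub1 was counted, at 14.8, 9.15 and 7.85 CPM, and not at the rim or with mitochondrial UMIs in the total. Mki67 gave 108, 85.1 and 76.5 CPM and Pcna 152, 113 and 106 CPM. At the rim the medians of these lists, averaged over both sections, were −0.98 and −1.17. Over all measured genes the medians in the female-labelled and male-labelled sections were −0.04 and −0.07, and at the rim −0.10 and −0.13.

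**Figure D5:**
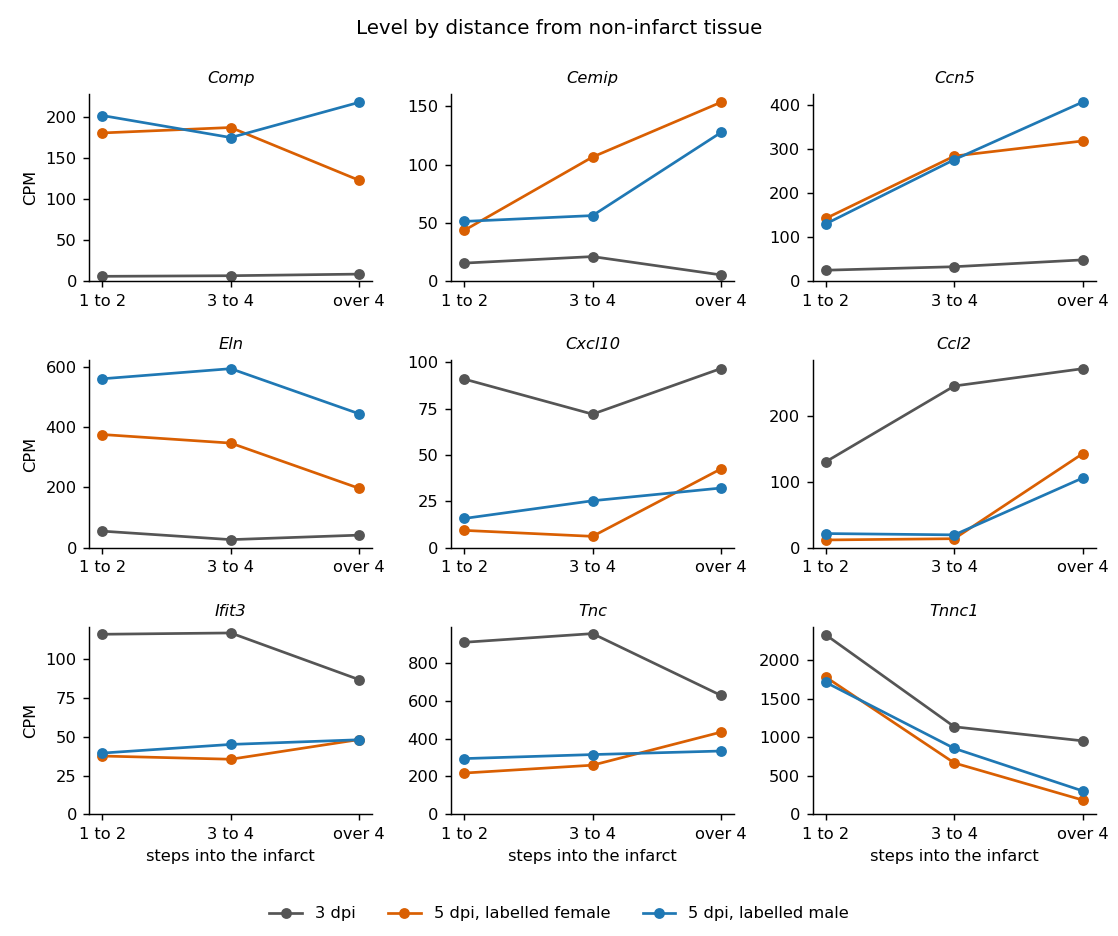
IZ level in CPM of 9 genes by the number of spot steps from non-infarct tissue, with 1 line per section. Cemip and Ccn5 are higher inward at 5 dpi, Ccl2 at 5 dpi is near its lowest at the rim, and Tnnc1 is lower inward in every section.

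Of the 485 lower genes, 263 were at least 2-fold lower in the IZ than in the RZ at 3 dpi, the pattern of heart muscle genes, and 154 lay between. The other 68 were at least 2-fold higher in the IZ, 2.59% of the 2630 measured genes of that kind. That number moved with the spots used, to 260 genes at the rim, 166 in the core, 248 in spots with under 1% cardiomyocyte UMIs and 119 with a zone limit of 0.3, of which 39, 50, 57 and 64 were among the 68. Of those 2630, 173 or 6.58% were higher at 5 dpi. Cxcl10, Ccl2, Ly6c2, Tnc, Ms4a4c and the genes Ifit1 and Ifit3 belong to the 68. So does Hbegf, an EGF receptor ligand, at 96.9, 36.5 and 40.1 CPM. Hbegf, Tnc and Ifit1 were not counted in spots with under 1% cardiomyocyte UMIs. Oasl1, Ddx58 and Ifih1, sensors or effectors of viral RNA outside the fixed interferon list, were in it too, and were named after their values were seen, at 36.8, 16.2 and 16.1 CPM, 39.4, 17.9 and 18.0 CPM, and 33.4, 18.4 and 17.6 CPM. Ifih1 was not counted in the core.

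The largest downward ratio was that of Srl. Srl, sarcalumenin, a calcium-binding protein of the sarcoplasmic reticulum, stood at 221 (208 to 234), 38.9 (34.6 to 43.6) and 36.2 (31.0 to 41.9) CPM. Nppb, the stretch-induced natriuretic peptide, stood at 276, 49.5 and 64.7 CPM. Sarcomere and Z-disc genes followed, with Fhod3 at 45.1, 9.93 and 12.4 CPM, Smyd1 at 62.5, 17.2 and 17.2 CPM, Xirp1 at 161, 37.8 and 50.8 CPM, and Tnnc1, cardiac troponin C, at 1544, 469.9 and 491 CPM. Ckmt2, mitochondrial creatine kinase, stood at 322, 91.7 and 71.1 CPM, and Hrc, a calcium-binding partner of the reticulum, at 50.1, 14.5 and 10.54 CPM. The rest were Fbxl22, Ank1, Itgb1bp2, Ppif, Eef1a2, Dgat2 and Tuba4a, between 3.02- and 5.73-fold lower.

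Their levels moved with the residual muscle RNA given above, and its part in these ratios was not tested. All 12 cardiomyocyte genes of the zone rule, which chose the spots and so are no finding, were lower, with medians of −1.54 and −1.32. Myh6 went from 2453 to 608 and 640.1 CPM, against 12139.8, 12828 and 9521 CPM in the RZ. At the rim their median log2 ratio, averaged over both sections, was −0.17, against −1.68 in the core. Tnnc1 gave 2329, 1781 and 1713 CPM at the rim and 954, 185 and 303 CPM in the core. Srl and Nppb were counted as lower in both the rim and the core, at 337, 152 and 160 CPM and at 371, 146 and 185 CPM at the rim. Of the 15 genes, Ank1, Smyd1, Ckmt2, Hrc, Itgb1bp2, Ppif, Eef1a2, Xirp1 and Tnnc1 were not counted at the rim. Fbxl22, Ank1, Fhod3, Smyd1, Hrc and Itgb1bp2 were not counted in spots with under 1% cardiomyocyte UMIs. In spots with under 1% cardiomyocyte UMIs, 237, 823 and 480 of them, 469 genes were lower, of which 171 are among the 485, and 355 were higher, of which 250 are among the 355.

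Border stress genes of muscle were lower in 7 of 12. Ankrd1, a stretch-induced nuclear protein, stood at 2024, 620.2 and 886 CPM and Xirp2 at 496, 193 and 199 CPM. Nppa, the atrial peptide, gave 11653, 6686 and 10118 CPM, and Sprr1a gave 879, 708 and 1576 CPM. Neither Ankrd1 nor Xirp2 was counted at the rim, where the list's median averaged over both sections was 0.05.

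Of 24 measured genes of hypoxia and glycolysis, 3 were lower and none higher. Hk2, a hexokinase, stood at 53.1, 17.9 and 11.2 CPM, Pdk1 at 31.2, 17.1 and 16.7 CPM, and Vegfa, an angiogenic factor, at 45.3, 23.9 and 29.3 CPM. None of the 3 was counted at the rim. Vegfa was counted in 9 of 15 alternative settings, and not under TMM scaling or with mitochondrial UMIs in the total. All 3 were higher in RZ than in IZ at 3 dpi. Of 17 measured genes of heme, iron and oxidative stress, Gpx3 and Hp were higher, 1 was lower and 14 were neither. Tfrc, the transferrin receptor and the 1 lower gene of that list, went from 42.2 (36.7 to 48.2) to 8.36 (6.44 to 10.7) and 7.23 (5.04 to 10.1) CPM, against 66.5, 117 and 82.2 CPM in the RZ, and was not counted in spots with under 1% cardiomyocyte UMIs. Hmox1, heme oxygenase, gave 613, 546 and 394 CPM.

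Of 13 measured endothelial genes 1 was higher and 1 lower, near the shares of 4.07% and 5.56% over all genes. Vwf was higher at 34.2, 68.5 and 63.2 CPM and Kdr, the main VEGF receptor, lower at 75.3, 41.4 and 43.0 CPM, though not at the rim or in spots with under 1% cardiomyocyte UMIs. Pecam1 gave 123, 86.7 and 103 CPM and Cdh5 142, 103 and 120 CPM. Of 10 mural genes, Cnn1 was higher and Des, also a muscle gene, lower, though not at the rim, while Pdgfrb gave 119, 168 and 165 CPM. Genes of T, B, dendritic and Schwann cells were mostly under the level for measurement.

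Red cell RNA was higher at 5 dpi over the whole zone, with a smaller list median in the core than at the rim. Hbb-bs stood at 1702, 11691 and 6933 CPM in the IZ, and the 5 erythroid genes summed to 3339, 23167 and 11925 CPM. The list's median log2 ratio, averaged over both sections, was 3.11 at the rim, 1.42 in the core and 1.58 in spots with under 1% cardiomyocyte UMIs. Hba-a1, Hba-a2 and Alas2 were not counted in the core, in those spots or with equal weight per spot, nor Hba-a1 and Alas2 at the rim, while Hbb-bs kept its call in all 15 settings. In the RZ the same sum was 6904, 33260 and 15450 CPM. The tenth of IZ spots richest in these UMIs held 56.4%, 64.6% and 67.8% of them. Msln, a mesothelial gene, rested on 5 UMIs at 3 dpi and stood at 0.999, 50.04 and 7.44 CPM, and it was not counted in the core, in spots with under 1% cardiomyocyte UMIs or with equal weight per spot. Leaving these RNAs out of a level was not tested.

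The spread of the 5 dpi pair had its own content. Of the 245 genes that differed by at least 1.5-fold between those sections, 142 were higher in the female-labelled one and 103 in the male-labelled one. Y-linked genes aside, and among genes with a mean of at least 20 CPM, the largest differences toward the female-labelled section were in Hbb-bt (1659 against 540.3 CPM), Cap1 (61.0 against 22.5), Saa3, Hba-a1 and Alas2. Toward the male-labelled section they were in Megf6 (19.2 against 48.4 CPM), Gdf3 (16.9 against 41.7), Adamtsl2 (73.3 against 177), Sprr1a and Ccl5. These genes were chosen after their values were seen.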

How the data were processed

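Spatial transcriptomes were made from 1 control section, 1 section at 3 dpi and 2 at 5 dpi. The authors deposited raw UMI counts per gene and spot, made with Space Ranger 1.3.1 per the labels and methods, with a mouse reference to which GFP had been added, and spots over tissue were picked by hand. Counts were used as deposited. Spots flagged as tissue with at least 500 UMIs were kept, and 623 unflagged spots of the male-labelled section were left out. For 21 symbols shared by several identifiers the deepest was used.

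UMIs of the IZ were summed per section, giving 4838496 to 7654312 non-mitochondrial UMIs, so that 3 UMIs were 0.392 to 0.620 CPM. PCR duplicates are removed by UMIs, and intervals cover counting error only. Samples were grouped by the labelled day, and each 5 dpi section was set against the 1 section at 3 dpi with no test. edgeR 4.0.16 gave TMM factors in an alternative only. The software was R 4.3.3, pandas 2.3.3, SciPy 1.17.1 and NumPy 2.4.6 under Python 3.11.15, with matplotlib 3.10.9 for figures. The counting rule was run on simulated data whose planted changes and gene levels lay above the limits used here. That run says nothing about genes near those limits.

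The members, the 42 gene lists and the rule were chosen with earlier results of these data known. Genes were named as the 15 with the largest nearer ratio in each direction (mean of at least 20 CPM, without the genes of the zone rule, Y-linked genes and Xist), the reporter and a fixed panel, and up to 4 genes per list; others were named after their values were seen. The alternatives changed the scaling, the zone limit, the spot and gene filters, the fold limit, the part of the infarct used and the 5 dpi section left out. The limits to spots under 1% cardiomyocyte UMIs and to genes at least 2-fold higher in IZ than RZ were added after seeing the data. Promoter windows came from RefSeq on GRCm38.p6. The files hold no gene coordinates. A result on 1 withheld item is not reported here.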

Additional observations from a re-analysis of the deposited data

Results flagged for a closer look

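In the male-labelled 5 dpi section, 623 spots not marked as tissue, which no comparison used, held 58.32 CPM of Comp and 54.73 CPM of Fmod, above the control section's 3.16 and 0.789 CPM. They held 2428772 UMIs, and their Comp level lay between the IZ and RZ levels of their own section. How the IZ share of that section would change with them was not tested. The same spots held 171 CPM of Ccn5 and 78.5 CPM of Cemip.

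Pclaf, a factor of DNA replication, was lower in the IZ at 5 dpi in both sections, with a nearer log2 ratio of −0.8317, from 69.5 to 37.5 and 39.1 CPM. In the RZ it was higher in both, at 9.605, 16.3 and 26.6 CPM. The difference between the zones was not tested.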

How the results depend on the processing

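No paired analysis was possible because the labels give no replicate numbers shared between the days and 3 dpi has 1 section. With a gene filter of 1 CPM, 734 genes were higher and 903 lower, and with 50 CPM 163 and 192. A nearer ratio of at least 2-fold left 127 and 140. Leaving out either 5 dpi section, which leaves 1 section a day and no spread, gave 469 to 566 higher and 730 to 859 lower genes. Limiting the count to genes at least 2-fold higher in IZ than RZ at 3 dpi gave 68 lower genes, and 260 at the rim, 166 in the core and 248 in spots under 1% cardiomyocyte UMIs. TMM scaling gave 439 higher and 405 lower genes, and mitochondrial UMIs in the total gave 462 and 358. Of 128 named genes that were counted, 41 kept their call in all 15 settings.

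At the rim 459 genes were higher and 487 lower, of which 206 and 100 were among the genes counted over the whole zone. The log2 ratio averaged over both sections (for a list, its median) changed sign there for the counted genes Ppbp (0.9546), Trem2 (−0.0106), Des (0.1466) and Xirp2 (0.06471). Among lists it did so for metalloproteinases (−0.02091), TGF-beta (−0.03017), cytokines (−0.01617), lysosome (−0.3722), hypoxia (0.002147), macrophage (−0.1395), lipid-associated macrophage (−0.3477) and border cardiomyocyte genes (0.05295). The provisional matrix (−0.2836), immediate early (−0.02805), dendritic cell (−0.7984) and endothelial (0.1668) lists changed sign at the rim too. In the core the sign changed for the lists of metalloproteinases (−0.04252), cytokines (−0.1512), immediate early (−0.0555), T and NK cell (−0.1467) and dendritic cell genes (−0.1054). In spots under 1% cardiomyocyte UMIs the sign changed for metalloproteinases (−0.03285), TGF-beta (−0.03623), cytokines (−0.1897), macrophages (−0.006427) and lipid-associated macrophages (−0.2444). It also changed there for immediate early (−0.05784), T and NK cell (−0.3482) and dendritic cell genes (−0.06523). With a zone limit of 0.3 it changed for cytokines (−0.003653). The cause was not tested.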
